A study of Caenorhabditis elegans with 2 samples.

Results

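The nuclear genes for mitochondrial ribosomal proteins were examined for binding sites of SPTF-1 in embryos of the nematode Caenorhabditis elegans. SPTF-1 belongs to the Sp family of transcription factors, which bind DNA through zinc fingers. Members were the protein-coding genes of the WBcel235 annotation whose symbol begins with mrpl- (large subunit) or mrps- (small subunit). There were 70 of them among 19973 nuclear protein-coding genes, 41 for the large and 29 for the small subunit. The rule uses gene names and no measured value, but the family was picked for study with earlier results of these data known. Chromatin immunoprecipitation sequencing had been done with strain OP707 (whole organisms), genotype unc-119(tm4063) III; wgIs707, in which the wgIs707 transgene expresses SPTF-1 with GFP and FLAG at its C-terminal end. Mixed-stage embryos, males and females pooled, were taken 2.5 hours after egg bleaching, and their chromatin was sonicated. The only group had 2 biological replicates, so no conditions could be compared, and strains without the tagged transgene were not analysed here. For the antibody, the label's description gives anti-GFP, but its antibody field gives sptf-1.

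Mitochondrial ribosomes translate the few messenger RNAs encoded by mitochondrial DNA, all of them for subunits of the respiratory chain and the ATP synthase. Their RNAs come from the mitochondrial genome, but their proteins are encoded in the nucleus, made in the cytosol and imported. Some of these proteins have a counterpart in the bacterial ribosome, while others are particular to mitochondria. In C. elegans, knockdown of mrps-5 is known to induce the mitochondrial unfolded protein response and to lengthen life. Many worm genes lie close behind one another on the same strand in operons, where downstream genes are transcribed from the promoter of the first.

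Each deposited region carries a summit, the position of its maximum, and a signal value, the strength that the authors' peak caller gave it. A gene was counted where a summit fell between 1000 bp upstream and 500 bp downstream of the 5' end of any of its transcripts, so a summit could count for neighbouring genes too. The thresholded list held 2430 peaks, and the full lists of the pooled data and of each replicate held 30000 regions each. Signal values from different lists are not on one scale, so ranks were used between replicates, with rank 1 the strongest. Read depth behind the lists is unknown. The intervals given for shares are exact Clopper-Pearson 95% intervals over the number of genes or windows only, and the lists hold binding signal, not expression, so the labelled stage could not be checked against marker genes.

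The summit windows of members carried a few recurring words, and those that best show them are printed here from the RefSeq WBcel235 genome, 121 bases centred on the summit and read in the direction of the gene. In these first sequences the capitals mark a 15-base word, GCAANCACCANCACG on either strand, in which N stands for any base. How this word and the others were picked is given with the motif counts. The mrpl-28 sequence is chrII:156062-156182 on the minus strand, from 173 to 53 bases before the gene's start. That of mrps-17 is chrIII:6431884-6432004 on the minus strand, from 206 to 86 bases before the start.
mrpl-28: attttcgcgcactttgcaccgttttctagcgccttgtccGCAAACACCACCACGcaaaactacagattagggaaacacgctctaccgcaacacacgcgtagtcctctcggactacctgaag
mrps-17: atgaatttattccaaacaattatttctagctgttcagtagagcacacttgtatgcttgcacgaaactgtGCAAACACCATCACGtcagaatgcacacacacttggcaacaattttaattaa

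A 13-base word, GCAANNNNGCTCC on either strand, is in capitals in the next set, which shows it beside thresholded summits of 4 members and beside a weaker summit shared by mrpl-1 and mrps-24. The coordinates are chrIII:1202306-1202426 (minus strand) for mrpl-45, chrIV:443824-443944 (plus) for mrpl-55, chrIV:773084-773204 (plus) for mrpl-2, chrIV:14767808-14767928 (minus) for mrps-7 and chrIV:7709875-7709995 (minus) for mrpl-1.
mrpl-45: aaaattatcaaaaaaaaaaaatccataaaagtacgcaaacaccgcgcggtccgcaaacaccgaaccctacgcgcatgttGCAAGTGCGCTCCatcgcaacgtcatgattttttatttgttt
mrpl-55: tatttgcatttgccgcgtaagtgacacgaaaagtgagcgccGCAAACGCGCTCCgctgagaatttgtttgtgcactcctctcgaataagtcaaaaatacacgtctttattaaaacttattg
mrpl-2: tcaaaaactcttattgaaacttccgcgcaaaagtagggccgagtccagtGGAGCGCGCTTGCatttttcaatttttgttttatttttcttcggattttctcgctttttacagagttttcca
mrps-7: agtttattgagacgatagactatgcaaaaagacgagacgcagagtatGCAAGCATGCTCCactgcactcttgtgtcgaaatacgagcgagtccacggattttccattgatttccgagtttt
mrpl-1: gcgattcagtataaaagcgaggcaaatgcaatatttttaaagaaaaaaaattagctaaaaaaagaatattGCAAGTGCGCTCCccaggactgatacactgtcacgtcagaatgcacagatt

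The last set shows the GC box GGGCGG, the classical site of mammalian Sp factors, in capitals on either strand. The mrpl-39 sequence is chrV:1821405-1821525 on the plus strand and that of mrps-34 is chrIII:4542511-4542631 on the minus strand. The mrps-28 sequence, chrV:19643179-19643299 on the plus strand, overlaps the exon of a snoRNA gene, Y43F8C.22. In its first run of capitals a CACCC box (as GGGTG) is followed directly by a match to the B box of RNA polymerase III genes, searched as GGTTCNANNCC, and the GC box is the second run.
mrpl-39: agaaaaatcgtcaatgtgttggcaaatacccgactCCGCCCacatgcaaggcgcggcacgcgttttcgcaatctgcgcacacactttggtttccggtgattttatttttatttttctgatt
mrps-34: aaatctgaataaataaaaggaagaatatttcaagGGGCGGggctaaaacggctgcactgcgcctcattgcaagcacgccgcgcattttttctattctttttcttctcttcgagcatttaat
mrps-28: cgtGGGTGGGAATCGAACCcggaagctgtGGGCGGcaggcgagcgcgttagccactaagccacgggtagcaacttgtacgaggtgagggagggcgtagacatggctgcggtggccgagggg

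A thresholded summit lay in the window of 15 of the 70 members (21.4%, interval 12.5 to 32.9%), beside 8.27% of all protein-coding genes (1652 of 19973). Large subunit genes accounted for 10 of 41 (24.4%, 12.4 to 40.3%) and small subunit genes for 5 of 29 (17.2%, 5.85 to 35.8%), so the intervals of the subunits overlapped widely. When each peak also had to share at least 1 base with one of the 2430 strongest regions of both replicates, 9 members were left (12.9%, 6.05 to 23.0%), beside 6.2% of all genes. These were mrpl-12, mrpl-15, mrpl-23, mrpl-39, mrpl-45, mrpl-55, mrps-28, mrps-34 and mrps-35. Counted from each replicate's own 2430 strongest regions, replicate 1 gave 9 members (12.9%, 6.05 to 23.0%), beside 7.97% of all genes. Replicate 2 gave 15 (21.4%, 12.5 to 32.9%), beside 8.51%. All 9 of replicate 1 were among the thresholded members, and 12 of the 15 of replicate 2 were. The other members of replicate 2's list were mrpl-37, mrpl-40 and mrps-23.

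Weak regions were common in the list as a whole. Any pooled summit, however low, was found for 48 members (68.6%, 56.4 to 79.1%), beside 39.8% of all genes. The full list of replicate 1 held a summit for 44 members (62.9%, 50.5 to 74.1%), beside 40.2%, and that of replicate 2 for 42 (60.0%, 47.6 to 71.5%), beside 41.6%. In all, 15 members had a thresholded summit, 33 had pooled summits below the threshold only, 8 had a summit in a replicate list only and 14 had none in any list (20.0%, against 50.2% of all genes). The members without any were mrpl-4, mrpl-11, mrpl-21, mrpl-32, mrpl-42, mrpl-44, mrpl-49, mrps-5, mrps-6, mrps-11, mrps-14, mrps-22, mrps-26 and mrps-33, and 10 of these 14 (71.4%) lay within 500 bp behind a neighbour on the same strand. Among all genes with no summit in any list that share was 18.5% (1860 of 10033), and over all 70 members, with or without a summit, it was 38.6%.

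**Figure D1:**
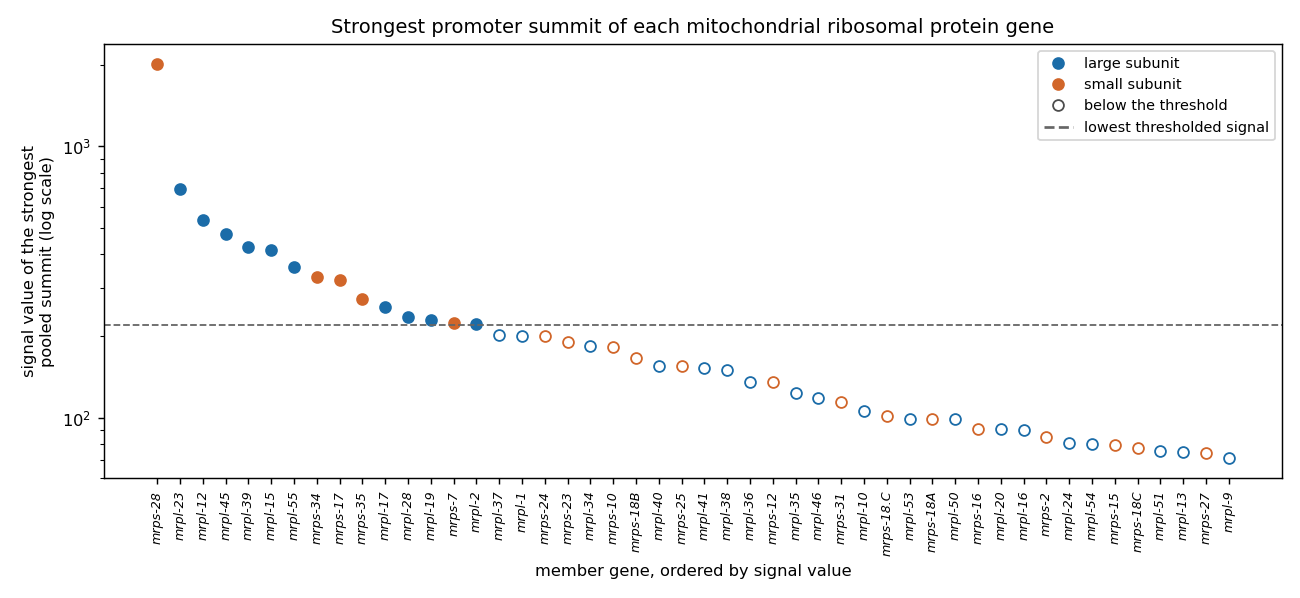
Signal value (log scale) of the strongest pooled summit in the window of each of the 48 members that had one, ordered by signal, with filled points for thresholded summits and open points for those below the threshold. The 15 thresholded members run from 221 to 2017, a single gene, mrps-28, stands well above the rest, and the 33 others run down to 70.8 without a gap at the dashed line, the lowest thresholded signal (219).

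Among the thresholded members, the signal of the strongest summit ran from 221 to 2017 with a median of 331. The median over all genes with a thresholded summit was 327. The median rank was 1001 for members and 1024.5 for all genes, so member peaks were about as strong as those of other genes. Peaks in the 2430 strongest regions of both replicates made up 60.0% of the members' (9 of 15), beside 74.8% of all (1236 of 1652).

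Both of the strongest member summits lay by snoRNA genes, whose products guide the modification of other RNAs, and far from the start of the member. The summit counted for mrps-28 had a pooled signal of 2017 (rank 23), with 1224 in replicate 1 (rank 20) and 794 in replicate 2 (rank 27). Its peak, chrV:19642999-19643432, lay in an intron of Y43F8C.7, and the summit was 52 bp from the snoRNA gene Y43F8C.22. This summit was 1000 bp upstream of mrps-28, on the last base of the window, and the replicates' own summits, 1007 and 1003 bp upstream, fell just outside it. Y43F8C.7 had the nearest start.

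The summit of mrpl-23, whose human counterpart lies at the exit of the nascent peptide tunnel, had a signal of 695 (rank 233). It was 354 in replicate 1 (rank 279) and 333 in replicate 2 (rank 202). It lay in an intron of fars-1, a phenylalanyl-tRNA synthetase gene, 959 bp upstream of mrpl-23 and 20 bp from the snoRNA gene T08B2.13. Of all genes with a thresholded summit, 7.32% (121) had their strongest summit within 200 bp of a small RNA gene, against 2 of the 15 members (13.3%). Without such summits 13 members remained, and the signal of the strongest was then 535.

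Next in signal came mrpl-12, named for the stalk protein of bacterial ribosomes that recruits translation factors. Its peak, chrIII:10707170-10707325, had a signal of 535 (rank 399), with 307 in replicate 1 (rank 381) and 228 in replicate 2 (rank 464). The summit lay 512 bp upstream of mrpl-12 and only 221 bp upstream of Y39A1A.22 on the opposite strand, so it was nearer to that gene, and it also fell in the window of Y39A1A.21. The mrpl-15 peak, chrI:1435599-1435735, had a signal of 415 (rank 660), with 255 in replicate 1 (rank 547) and 164 in replicate 2 (rank 884). It lay 596 bp upstream of the gene and in no other gene's window.

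The remaining large subunit members named after bacterial ribosomal proteins had weaker peaks. For mrpl-17 the pooled signal was 256 (rank 1704), but its rank was 3977 in replicate 1 and 1022 in replicate 2. Its summit lay 168 bp upstream, between mrpl-17 and vbh-1, a DEAD-box RNA helicase gene on the opposite strand. The mrpl-28 peak, chrII:155910-156333, had a signal of 235 and ranked 1750 and 2859 in the replicates. The mrpl-19 signal was 229.9, with ranks of 2750 and 1956. For mrpl-2, a homologue of the protein next to the peptidyl transferase centre, the signal was 221, the lowest of the 15, with ranks of 3137 and 2794. All 4 therefore missed the 2430 strongest regions of at least 1 replicate, and mrpl-2 missed them in both.

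In the small subunit, mrps-17 and mrps-7 have bacterial counterparts, and mrps-7 is a homologue of a primary rRNA-binding protein of the small subunit head. The mrps-17 peak, chrIII:6431732-6432155, had a pooled signal of 321 (rank 1067) and ranked 604 in replicate 2 with a signal of 197, yet the list of replicate 1 held no region that overlapped it. Its summit lay 146 bp upstream of mrps-17 and 234 bp upstream of txdc-9, a thioredoxin domain gene on the opposite strand. The mrps-7 signal was 224 (rank 2277), with ranks of 3981 and 1681. This summit, 138 bp upstream, was shared with Y57G11C.3 on the opposite strand. Replicate 2 ranked the mrps-7 peak higher than replicate 1 did, as it did those of mrpl-17, mrpl-19 and mrpl-2.

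Members named after human proteins that are particular to mitochondrial ribosomes were mrpl-39, mrpl-45, mrpl-55, mrps-34 and mrps-35, and all 5 peaks were found in both replicates. The mrpl-45 peak, chrIII:1202292-1202423, had a signal of 474 (rank 509), with 269 in replicate 1 (rank 490) and 199 in replicate 2 (rank 597). Human MRPL45 anchors the mitochondrial ribosome to the inner membrane. Its summit was 358 bp upstream of mrpl-45 but 180 bp upstream of Y119D3B.12 on the opposite strand.

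The mrpl-39 peak, chrV:1821253-1821676, had a signal of 424 (rank 630), with 262 in replicate 1 (rank 513) and 169 in replicate 2 (rank 844). Its summit was the same base, 114 bp upstream, in the pooled list and both replicates, and 142 bp upstream of gly-7, a glycosyltransferase gene on the opposite strand. The mrpl-55 peak, chrIV:443672-444095, had a signal of 360.0 (rank 863) and ranked 903 and 888 in the replicates, the closest pair of ranks among member peaks apart from mrps-28. Its summit lay 101 bp upstream in no other gene's window.

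Both remaining genes of this kind belong to the small subunit. The mrps-34 peak, chrIII:4542359-4542782, had a signal of 331 (rank 1001; 1130 and 1207 in the replicates), 119 bp upstream of mrps-34 and 310 bp upstream of cisd-3.1, which codes for an iron-sulfur domain protein. The mrps-35 peak, chrV:18980959-18981382, had a signal of 275 (rank 1461; 1668 and 1610). Its summit lay 135 bp upstream of mrps-35 in an exon of sws-1, a homologous recombination gene, 21 bp upstream of the nearest annotated start of sws-1. The starts of mrps-35 and sws-1 nearest the summit were 156 bp apart on opposite strands.

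**Figure D2:**
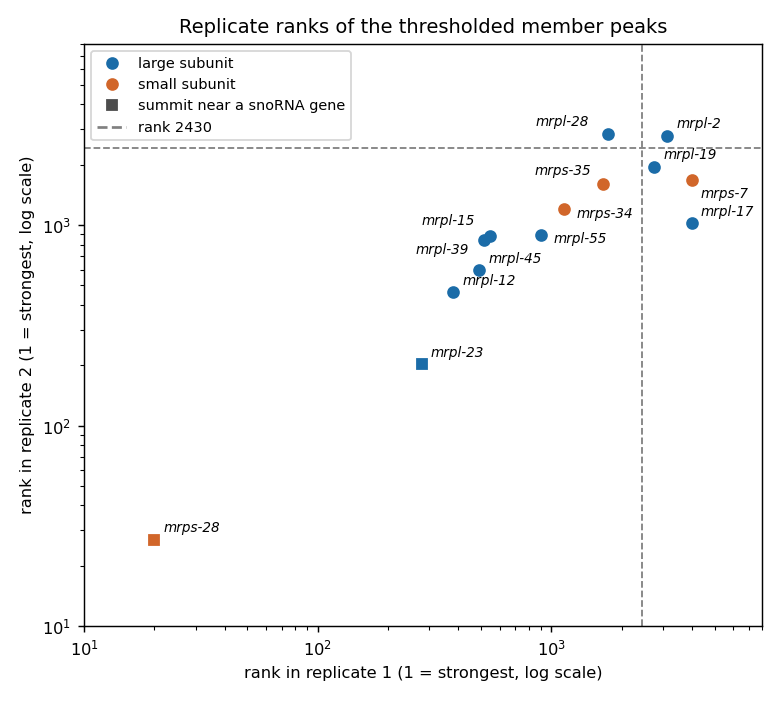
Rank of each thresholded member peak in replicate 1 (horizontal) and replicate 2 (vertical), both on log scales with 1 the strongest, for the 14 peaks with an overlapping region in both replicate lists; mrps-17 had none in replicate 1. The 9 peaks below and left of the dashed lines (rank 2430) are those found in both replicates, and mrps-28 and mrpl-23, the squares, are near snoRNA genes.

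Member summits stood close to the start of the gene. The median position was 146 bp upstream for members and 247 bp upstream for all genes with a thresholded summit. Within 200 bp upstream lay 10 of the 15 (66.7%), against 33.2% of all (549 of 1652), and these 10 ran from 93 bp (mrpl-2) to 182 bp (mrpl-19). No member summit was downstream of its start, against 8.9% of all (147). Over 500 bp upstream were mrps-28, mrpl-23, mrpl-15 and mrpl-12 (26.7%, against 23.1% of all), which include the 3 strongest. A member was the nearest gene to its own summit in 11 of 15 cases (73.3%), against 74.9% of all.

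**Figure D3:**
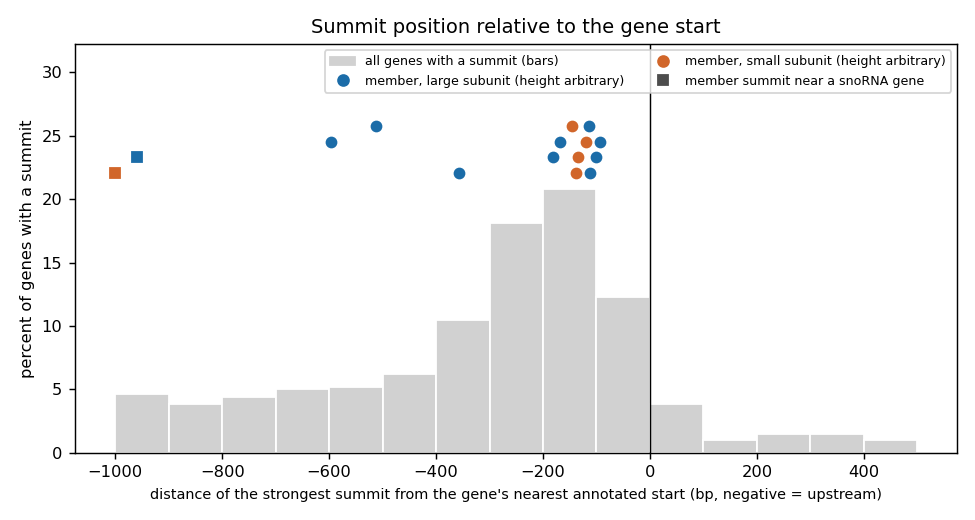
Distance in bp of the strongest thresholded summit from the gene's nearest annotated start, with 0 at the start and negative values upstream; grey bars give the percent of the 1652 genes with a summit in each bin and points are the 15 members at arbitrary heights. A cluster of 10 members sits between 93 and 182 bp upstream, and the squares near snoRNA genes are at the far left.

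The 33 members below the threshold had a best pooled signal from 70.8 to 202, with a median of 106. The median over all genes in that position was 114, and the lowest thresholded signal was 219. A summit in both replicate lists was found for 20 of the 33 (60.6%), against 73.5% of all genes in that position (4626 of 6298). Just outside the threshold came mrpl-37, with a signal of 202 (rank 2929) 607 bp upstream and ranks of 4083 and 2406 in the replicates. Next was the summit shared by mrpl-1 and mrps-24, which are transcribed away from each other, 343 bp apart. The start of emc-6, which overlaps mrpl-1 on the same strand, lies between them, 308 bp from mrps-24. Its signal was 200.4 (rank 2992), and it lay 234 bp upstream of mrpl-1 and 110 bp upstream of mrps-24, with ranks of 4537 and 3106. It was followed by mrps-23 with 190.3 (rank 3416; 10197 and 1666 in the replicates) and by mrpl-34 with 184 (rank 3700), 446 bp downstream of the start. The mrpl-34 summit ranked 3631 in replicate 1 and had no counterpart in the window in replicate 2.

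The position of members among their neighbours was examined after the values were seen. A gene was called close tandem where the neighbour at its 5' side lay on the same strand within 500 bp, and head to head where that neighbour lay on the opposite strand within 1000 bp. Spacing stands in for operons here, since the annotation used lists none. Of the 70 members, 27 were in a close tandem (38.6%, 27.2 to 51.0%), against 18.6% of all genes. Another 26 were head to head (37.1%, 25.9 to 49.5%), against 17.7%. That left 17 (24.3%, 14.8 to 36.0%), against 63.7% of all. In the tandems the median gap was 105 bp, and 20 of 27 gaps were 120 bp or less.

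Thresholded summits were found at 3 of the 27 tandem members (11.1%, 2.35 to 29.2%), beside 5.32% of all tandem genes, and at 12 of the 43 others (27.9%, 15.3 to 43.7%), beside 8.95%. Replicate 2's strongest regions alone gave 2 and 13, and replicate 1's alone gave 1 and 8. With a gap of at most 200 bp as the limit, 1 of 20 tandem members and 14 of the 50 others had one. The shares of all genes are not given for these alternatives, so they are counts of members only. Head-to-head members had a summit in 8 of 26 cases (30.8%, 14.3 to 51.8%), beside 17.6%, and the rest in 4 of 17 (23.5%, 6.81 to 49.9%), beside 6.56%. A summit shared with a gene on the opposite strand was found for 8 of the 15 members with a summit (53.3%), against 44.1% of all genes with one (729 of 1652). These 8 are not the 8 head-to-head members. They leave out mrps-28, whose summit lay in an intron of Y43F8C.7 and in no other gene's window. They take in mrps-35, which was counted with the rest but shared its summit with sws-1.

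Tandem members were then followed along the strand to the first gene of the run. A thresholded summit stood at that first gene for 13 of 27 (48.1%, 28.7 to 68.1%), beside 16.2% of all tandem genes (605 of 3724). For 12 of these 13 none stood at the member, and for 531 of the 605 none stood at the gene itself. Such cases were thus most of the first-gene summits in both groups. They made up 44.4% of tandem members (25.5 to 64.7%) and 14.3% of all tandem genes. The strongest was 927 bp upstream of nrde-2, a nuclear RNA interference gene that precedes mrps-14, with a signal of 813 (ranks 188 and 158 in the replicates). The summit before clsp-1, the claspin gene that precedes mrpl-54, had 526 (ranks 466 and 423). That before F29B9.11, which precedes mrps-21, had 494 (ranks 496 and 463), and it was the same summit that fell in the window of jmjd-1.2, a histone demethylase gene of the mitochondrial stress response.

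Other first genes were of varied kinds. The proteasome gene rpn-3 precedes mrpl-32 and had a summit of 485 (ranks 482 and 515), 208 bp upstream. The gene atp-2, for the beta subunit of the ATP synthase, is 2 genes ahead of mrps-26 and had a signal of 377 (ranks 908 and 880). A summit of 359 lay 285 bp downstream of the start of num-1, which precedes mrps-12. The remaining 6 were eif-3.E before mrps-30 (328), vps-37 before mrpl-48 (324), T14B4.3 before mrps-18.C (269), F21D5.7 before mrps-33 (259), W04B5.5 before mrpl-30 (233) and misc-1 before mrpl-41 (227). None of the 12 was within 200 bp of a small RNA gene. For 12 of the 27 tandem members neither the member nor the first gene had a thresholded summit. Among them were mrps-5 behind sel-1, mrps-2 and mrpl-4 behind natc-1, and mrps-22 behind rpb-6. Most of all tandem genes had neither, since 5.32% (198 of 3724) had a summit themselves and 14.3% (531) at the first gene only. Counting a summit at either the gene or the first gene of its tandem gave 27 of the 70 members (38.6%), beside 10.9% of all genes (2183). This count gives a second window to tandem genes only, which were 38.6% of members and 18.6% of all genes. The 2 shares therefore also reflect arrangement, and how far was not tested.

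**Figure D4:**
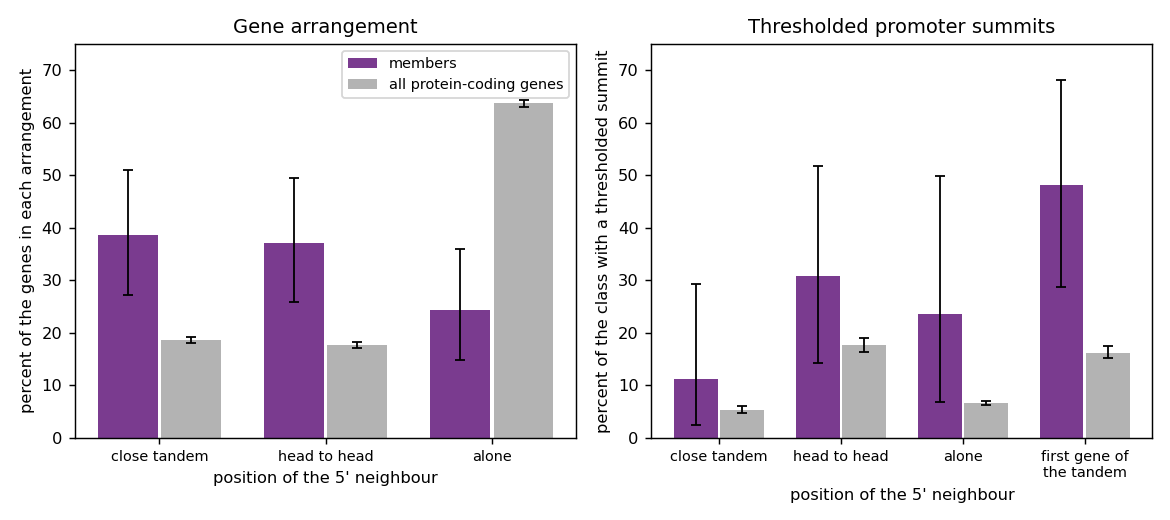
Left, percent of the 70 members (purple) and of all 19973 protein-coding genes (grey) in each arrangement with the 5' neighbour; right, percent of each class with a thresholded summit, with the first gene of the tandem in the last pair, and exact 95% intervals as error bars. Tandem members had a summit themselves in 11.1% of cases and at the first gene in 48.1%, beside 5.32% and 16.2% of all tandem genes.

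By chromosome, 15 members lay on I, 12 on II, 22 on III, 11 on IV, 10 on V and none on X. Of all protein-coding genes, 2878 lie on I, 3449 on II, 2640 on III, 3281 on IV, 4994 on V and 2731 on X. Of the 15 with a thresholded summit, 4 were on I, 1 on II, 4 on III, 3 on IV and 3 on V. The shares of all genes with a summit on each chromosome are not given, so these are counts of members only.

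Motif counts used windows of 301 bp centred on the summit, set beside the windows at all 1334 thresholded promoter summits and beside all 19973 promoters, taken from 250 bp before to 50 bp after the start. The GC box GGGCGG was in 3 of the 15 member windows (20.0%, 4.33 to 48.1%), namely those of mrps-28, mrpl-39 and mrps-34 printed above, in 17.5% of all summit windows and in 7.87% of promoters. In each of the 3 it lay from 22 to 28 bases before the summit in the direction of the gene. The CACCC box, bound by Sp and KLF factors in mammals, was in 3 windows too (mrps-28, mrpl-45 and mrps-17), in 29.5% of all summit windows and in 19.0% of promoters. Within the central 101 bp it was in 0 of 15 member windows (interval up to 21.8%), in 14.6% of all summit windows and in 6.84% of promoters. The median GC content of the member windows was 35.9%, below the 42.2% of all summit windows and near the 34.2% of promoters.

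The shapes of the other words were chosen after the sequences were seen, and the words were picked from these same windows, so their counts in members describe the choice. The B box was taken as the word with these fixed and free places found in most nuclear tRNA genes (503 of 612, 82.2%), and a match was in the windows of mrps-28 and mrpl-23 (13.3%), the pair by snoRNA genes, in 5.17% of all summit windows and in 0.416% of promoters. For the 13-base shape, with 9 fixed bases, 52 words were in at least 4 member windows. The word kept was the one that the fewest promoters held, so its low share of promoters is part of the choice. This 13-base word was in the windows of mrpl-45, mrpl-55, mrps-7 and mrpl-2 (26.7%, 7.79 to 55.1%), in 4.95% of all summit windows and in 1.15% of promoters. It also lay in the promoters of mrpl-1, mrps-24, mrpl-47 and mrpl-49, which had no thresholded summit. The site printed above for mrpl-1 lies between the starts of mrpl-1 and mrps-24, so it is the same site in both promoters. Of the 223 promoters of other genes with the word, 60 belonged to a gene with a thresholded summit (26.9%, 21.2 to 33.2%), beside 8.27% of all genes. Some other genes may share a summit with a member, as Y119D3B.12 does with mrpl-45, so the 223 are not all independent of the windows used for the choice. The 15-base word, with 13 fixed bases, was the only one of its shape in at least 3 member windows. It was in the windows of mrps-17, mrpl-28 and mrpl-19 (20.0%, 4.33 to 48.1%), in 0.6% of all summit windows (8 of 1334) and in 0.0601% of promoters (12 of 19973). Its centre was from 14 to 50 bases from the summit. A match shows only that the letters are present.

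**Figure D5:**
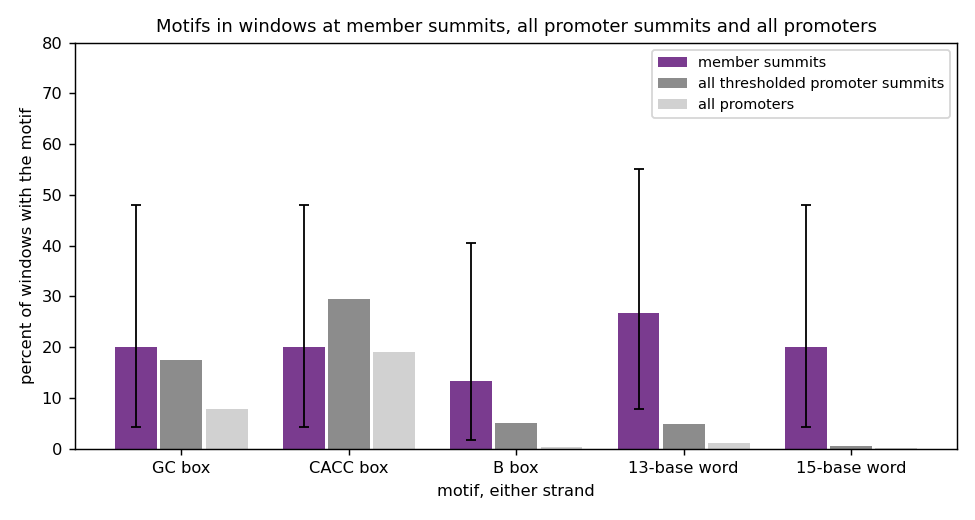
Percent of 301-bp windows that hold each motif on either strand, for the 15 member summits (purple, exact 95% intervals), all 1334 thresholded promoter summits (dark grey) and all 19973 promoters (light grey). The GC box was in 20.0% of member windows and 17.5% of all summit windows, and the 13-base and 15-base words were chosen on the member windows.

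Other nuclear genes for mitochondrial gene expression and protein upkeep were counted for comparison, from lists compiled by hand. Over all protein-coding genes the share with a thresholded summit was 8.27%. For the machinery of mitochondrial DNA and RNA, 2 of 9 genes had one (22.2%, 2.81 to 60.0%). They were mtss-1 (signal 767), for the single-stranded DNA-binding protein, and mma-1 (560.0), whose summit was near a small RNA gene. In the list of translation factors and tRNA synthetases for mitochondria, 4 of 20 had one (20.0%, 5.73 to 43.7%). This share was near the 21.4% of the mitochondrial ribosomal protein genes, but its wide interval also held the 8.27% of all genes. Whether the listed synthetases serve mitochondria only was not checked. These were the synthetase genes ears-2 (1858), kars-1 (390.2) and tars-1 (354), and gfm-1 (345), for an elongation factor.

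Protein import gave 4 of 18 (22.2%, 6.41 to 47.6%), with ddp-1 (990.2), tomm-20 (584), timm-23 (327) and mppb-1 (257). Chaperones and proteases gave 7 of 11 (63.6%, 30.8 to 89.1%). The chaperonin gene hsp-60 and its neighbour Y22D7AL.10 shared a summit of 1082, and clpp-1 (419), hsp-6 (332), phb-2 (271), phb-1 (240.2) and spg-7 (238) had one each. In the mitochondrial stress response list 2 of 8 had one (25.0%, 3.19 to 65.1%), jmjd-1.2 (494) and ubl-5 (288). The intervals of the DNA and RNA, translation, import and stress lists all held the 8.27% of all genes. Cytosolic ribosomal protein genes had a summit in 28 of 47 cases for the large subunit (59.6%, 44.3 to 73.6%) and in 18 of 31 for the small (58.1%, 39.1 to 75.5%). Both of these intervals lay above that of the mitochondrial ribosomal protein genes (12.5 to 32.9%). The lists also differed in arrangement. Only 4 of the 47 and 4 of the 31 were in a close tandem, against 27 of the 70 members. Whether this bears on the difference was not tested. The summit of rpl-36 was also that of rps-14, and the summit of rpl-39 that of rps-30, so these counted for both subunits.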

How the data were processed

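Per the deposited file listings, the authors called regions on ce11 alignments with a control file, for each replicate and for both together, and then made the thresholded list, named as optimal, by irreproducible discovery rate analysis. The aligner, peak caller, cutoff and depth are not given in the sources used here. In the deposited lists each region has a signal value from the authors' caller, a −log10 of the q value (1.93 to 2.02 for the member peaks) and a summit offset in bp. The 2430 thresholded regions are the strongest pooled ones.

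Summits were assigned to genes of Ensembl release 115 (WBcel235, the same build as ce11) in Python 3.11.15 with SciPy 1.17.1, NumPy 2.4.6 and, for plots, matplotlib 3.10.9. Neighbours that overlapped a gene by more than 50 bp were skipped when arrangement was set. The coding of the window search was checked on simulated data, where 100 of 100 summits planted inside the window were recovered. This does not test whether a summit in the window belongs to that gene. Counts and shares carry no hypothesis test, since there was 1 group. Members, gene lists and counts were chosen with earlier results of these data known. Named were all members with a thresholded summit, the 5 strongest below it, their neighbours and small RNA genes, and pathway genes with a summit. The tandem genes, the members listed without a summit, mrpl-40, mrpl-47, and the B box and the longer words fall outside this rule and were named after their values were seen. Symbols of the hand-made lists that the annotation lacks were left out. Alternatives covered the window, gene assignment, overlap rule, peak set, window width and each replicate alone. The ce10 lists were not used here.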

Additional observations from a re-analysis of the deposited data

How the results depend on the processing

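The count of 15 members with a thresholded summit became 9 among the 1215 strongest peaks, and ran from 9 (replicate 1 alone) to 15 (replicate 2 alone) when 1 replicate was left out. Other windows, nearest-start assignment, leaving out peaks near small RNA genes and an unconverted summit position gave from 11 to 19. For these settings and the 1215 strongest peaks no share over all genes is given. Those counts therefore do not show how members compared with other genes. Allowing any region of the full replicate lists raised the 9 members found in both replicates to 14, and requiring overlap of at least 50% of each interval lowered them to 6. No share over all genes is given under these overlap rules either, so both are counts of members only. The count with any pooled summit ran from 42 to 44 with 1 replicate, and the median distance from -142 to -138 bp. CACCC windows fell from 3 to 0 within 101 bp. With a 200 bp gap, 1 of 20 tandem members and 14 of the 50 others had a summit. With 1 replicate, tandem members with a summit numbered from 1 to 2 and the others from 8 to 13. These tandem alternatives, for which no share over all genes is given, and the unconverted position were chosen after seeing the data. No paired analysis was possible because there was 1 group and no test. With unknown depth, a member without a summit cannot be called unbound.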

Other observations

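The 15-base word GCAANCACCANCACG was looked up along the whole nuclear genome, after it had been seen at mrps-17, mrpl-28 and mrpl-19. It occurred at 24 sites, of which 8 had a thresholded summit within 150 bp and 12 had a pooled one. Leaving out the 3 sites nearest a member, 5 of 21 had a thresholded summit and 9 had a pooled one. The share of the genome within 150 bp of a summit is not given, so these counts have no background and were not tested. The 5 were nearest to mdt-1.2 (signal 345, rank 924), M02E1.1 (263, rank 1602), pqn-15 (239, rank 1963), dhhc-10 (238, rank 2006) and pcaf-1 (220.0, rank 2395), and the first 4 of these genes are on the X chromosome, which holds no mitochondrial ribosomal protein gene. Below the threshold, the site nearest to dpff-1 had a pooled summit of 209 (rank 2699). All 8 thresholded summits at the word had signals from 220.0 to 345.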
